A study of Homo sapiens with 10 samples.

Results

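The regions described here are H3K4me3 ChIP-seq peaks of MDAMB231 cells that lie far from annotated transcription start sites. They were chosen by position: a peak of the deposited H3K4me3 list on chromosomes 1 to 22 was a member when no GENCODE v44lift37 transcript, of any gene type, started within 5 kb of its bounds. This rule selected 2653 of the 17403 H3K4me3 peaks on these chromosomes (15.2%), from a list of 18019 peaks in all. They are called distal H3K4me3 peaks, and the other 14750 are called proximal. The members were selected on the H3K4me3 list itself, so their H3K4me3 score and width are a description, whereas H3K27Ac, H3K4me1 and FAIRE were measured in other libraries.

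MDAMB231 is a triple-negative human breast cancer cell line, grown here in DMEM with 5% FBS, with no treatment named in the labels. ChIP-seq was performed with antibodies against H3K4me3, H3K27Ac and H3K4me1, with 2 samples per mark beside 1 input sample, and FAIRE-seq, which recovers open DNA that was not crosslinked to protein, was performed on 2 samples with 1 input sample. The authors combined the samples of an assay and deposited 1 list for it, so the 4 lists carry no replicate error, and the read depth of a peak is unknown from the lists. There were 37495 H3K27Ac, 26771 H3K4me1 and 46547 FAIRE peaks to compare with, all on hg19. All intervals below are 95% intervals that cover counting error over peaks only, because peaks are neighbours on a chromosome and are not independent replicates. As a check of the cell type, an H3K4me3 peak lay within 1 kb of a start site of all 5 mesenchymal markers examined (VIM, CD44, AXL, ZEB1 and CAV1) and of all 4 housekeeping genes, but of 0 of 5 blood and endothelial markers. It was also present at 5 of 6 luminal epithelial markers, all but CDH1, and at 1 of 3 fibroblast markers, PDGFRA. Of the luminal markers, GATA3, EPCAM and CDH1 had an H3K27Ac peak within the same window, and ESR1, PGR and FOXA1 had none.

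H3K4me3 is deposited by SET1 and MLL methyltransferase complexes, and it is found mainly at active promoters, above all where the DNA is rich in CpG dinucleotides that CXXC domain proteins of these complexes recognise. Distal enhancers usually carry H3K4me1 with little H3K4me3, and active ones also carry H3K27Ac, which p300 and CBP deposit, and lie in open chromatin. H3K4me3 away from known promoters has been described at unannotated start sites, at CpG islands inside or between genes, and at strongly active enhancers.

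The following sequences give 200 bases (hg19, plus strand) at 1 member in each of 3 combinations of marks, and they are shown as examples of the CpG and motif letters counted below. Each member has the highest H3K4me3 score of its combination. At LIF and on chromosome 2 other members shared that score of 3100, and the widest was taken. Each window is centred on the tallest FAIRE peak that meets the member, or on the H3K4me3 peak itself where there is no FAIRE peak, and CpG dinucleotides are in capitals.
LIF locus, all 3 marks, chr22:30647855-30648054: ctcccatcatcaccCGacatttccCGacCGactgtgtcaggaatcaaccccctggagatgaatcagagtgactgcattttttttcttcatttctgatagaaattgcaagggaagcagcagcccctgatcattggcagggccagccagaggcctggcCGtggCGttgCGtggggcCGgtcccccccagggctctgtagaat
SLC1A3 locus, FAIRE alone, chr5:36744520-36744719: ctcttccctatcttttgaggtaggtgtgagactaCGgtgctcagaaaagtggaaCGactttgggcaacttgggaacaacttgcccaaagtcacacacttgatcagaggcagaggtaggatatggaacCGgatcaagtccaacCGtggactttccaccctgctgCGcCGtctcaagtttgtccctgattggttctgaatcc
Pericentromeric region of chromosome 2, none of the marks, chr2:90449244-90449443: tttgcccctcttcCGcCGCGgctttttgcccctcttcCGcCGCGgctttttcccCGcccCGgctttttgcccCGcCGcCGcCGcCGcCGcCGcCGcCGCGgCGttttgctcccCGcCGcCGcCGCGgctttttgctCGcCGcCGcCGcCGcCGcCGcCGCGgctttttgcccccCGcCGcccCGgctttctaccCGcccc
The windows at LIF and SLC1A3 held 7 and 6 CpG dinucleotides, with a CpG observed over expected ratio of 0.448 and 0.471. Over 500 bases at the centre of its H3K4me3 peak, the SLC1A3 member had a higher ratio of 0.749. The window on chromosome 2 held 37, with a ratio of 1.41, in a run of short CCG repeats, and it contained 3 copies of GGGCGG (Sp/KLF). Most of the LIF window lies outside the member, because its FAIRE peak meets only the lower edge of the H3K4me3 peak, which starts at base 30648043. The window contained 1 copy of TGANTCA (AP-1), outside the H3K4me3 peak, and no copy was found in the 500 bases at the centre of that peak. No match to the other motifs searched, GGAATG (TEAD), CCGGAAG (ETS), TGTTTAC (forkhead) and CACGTG (E-box), was found in any of the 3 windows.

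Distal H3K4me3 peaks were weaker and narrower than proximal peaks, but they covered the whole range of scores. The authors' score is a MACS p-value on a scale of -10 × log10, so that a higher score is a smaller p-value, and it reaches a ceiling near 3100. Distal peaks had a median score of 159 (quartiles 81.3 and 502), and the median of proximal peaks lay at the ceiling of 3100. A score under 100 was found at 888 distal peaks (33.5%) and at 4.24% of proximal peaks. At the other end, 115 distal peaks (4.33%) reached 3100 or more, compared with 66.8% of proximal peaks. The median width was 1368 bp at distal peaks (quartiles 1105 and 1738) and 2707 bp at proximal peaks. Weak peaks thus made up a large share of the members, and most of the strongest could not be ranked by score.

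**Figure D1:**
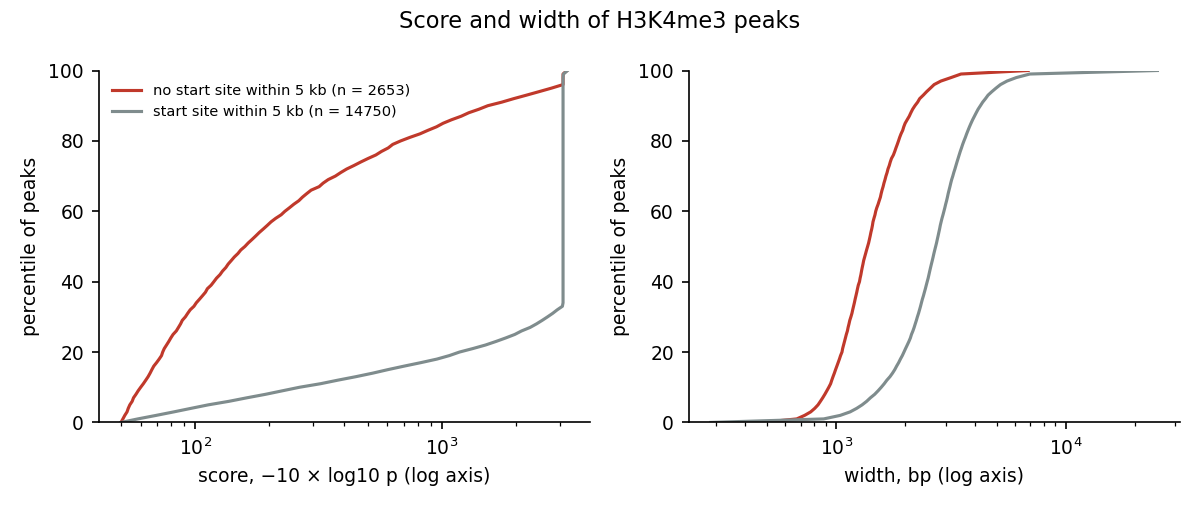
Percentiles of peaks by H3K4me3 score (left) and width in bp (right), both on log axes, for 2653 distal and 14750 proximal H3K4me3 peaks. The distal curve rises from the lowest scores, with a median of 159, while most proximal peaks sit at the ceiling of 3100.

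H3K27Ac was the most frequent of the other marks at distal H3K4me3 peaks. A mark was counted as present when at least 1 base was shared with a peak of its list. H3K27Ac was present at 1614 of the 2653 distal peaks (60.8%, 95% Wilson interval 59% to 62.7%), compared with 81.2% of all H3K4me3 peaks on chromosomes 1 to 22. H3K4me1 was present at 799 (30.1%, 28.4% to 31.9%), compared with 22.8% of all H3K4me3 peaks, and the shares were 19.6% and 12% when only H3K4me1 peaks with scores of 100 or more were counted. FAIRE was present at 1005 (37.9%, 36.1% to 39.7%), compared with 45.0% of all H3K4me3 peaks, and the shares were 23.6% and 27.2% when only FAIRE peaks no lower than the list's median were counted. By the rule of 1 shared base, distal peaks were therefore less often acetylated and open, and more often marked with H3K4me1, than H3K4me3 peaks in general. For FAIRE the sign turned when the centre of the H3K4me3 peak had to lie in the FAIRE peak, with 29.2% of distal and 23.2% of proximal peaks.

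The difference from proximal peaks depended on the width and score of the peaks compared. For H3K27Ac, the distal share was below the proximal share of 84.9% (difference -24.1 points, 95% Newcombe interval -26 to -22.1). When proximal peaks were weighted to the 10 width classes of the distal peaks, their share fell to 51.7%, and distal peaks were 9.1 points higher. The Mantel-Haenszel odds ratio over the width classes was 1.49 (95% interval 1.33 to 1.67), in contrast to an odds ratio of 0.276 without classes, and the odds ratios of single classes ranged from 0.434 to 2.12. In classes of the same score, distal peaks were 5.88 points higher in H3K27Ac (Mantel-Haenszel odds ratio 1.31, 1.18 to 1.47). Within these classes of width or score, acetylation was thus more frequent away from start sites on average, although not in each class. The top class was broad, from a score of about 1536 or a width of about 2199 bp upward. The median proximal peak, with a score of 3100 and a width of 2707 bp, lay in it, so peaks there were not closely alike.

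H3K4me1 gave a difference of the same sign in these comparisons on average over the classes, although not in each class. The distal share exceeded the proximal share of 21.5% by 8.66 points (Newcombe interval 6.82 to 10.5). Within width classes the difference was 8.8 points, with a Mantel-Haenszel odds ratio of 1.66 (1.48 to 1.87). Within score classes it was 3.14 points, with an odds ratio of 1.14 (1.01 to 1.27). The lowest odds ratios of single classes were 0.933 for width and 0.643 for score. FAIRE changed sign between the comparisons. Its distal share was below the proximal share of 46.3% (difference -8.39 points, -10.4 to -6.36), but 5.65 points above it within width classes, with a Mantel-Haenszel odds ratio of 1.32 (1.19 to 1.47). Within score classes, FAIRE differed by -0.563 points, and the interval of the odds ratio (0.951, 0.858 to 1.05) included 1.

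**Figure D2:**
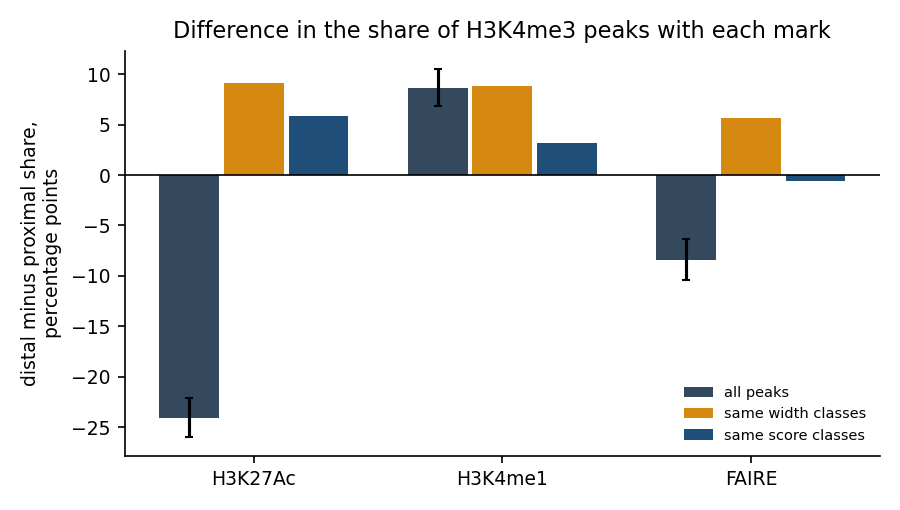
Difference in the share of H3K4me3 peaks with each mark, distal minus proximal, in percentage points, for all peaks (with 95% Newcombe intervals) and with proximal peaks weighted to the width or score classes of the distal peaks. H3K27Ac is -24.1 points over all peaks and 9.1 points within width classes, and H3K4me1 is above 0 in all 3 comparisons.

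The marks at distal H3K4me3 peaks changed with the strength of H3K4me3. H3K27Ac was present at 52.6% of members with a score under 100 (49.3% to 55.9%) and at 94.8% of those with 3100 or more (89.1% to 97.6%). H3K4me1 went the other way, from 36.5% (33.4% to 39.7%) to 13% (8.07% to 20.4%). FAIRE was nearly level, at 39.4% and 38.3% in the same classes. Stronger H3K4me3 was accompanied by more H3K27Ac and less H3K4me1. Proximal peaks with a score under 100 carried H3K27Ac at 50.3%, H3K4me1 at 33.1% and FAIRE at 43.1%, close to distal peaks of the same score. At scores from 1000 to 3100, H3K27Ac was present at 81.9% of distal peaks (77% to 85.9%) and at 71.8% of proximal peaks (69.9% to 73.7%). At scores of 3100 or more, all 3 marks were less frequent at distal than at proximal peaks, where H3K27Ac was present at 97.3% (96.9% to 97.6%), H3K4me1 at 21.4% (20.6% to 22.2%) and FAIRE at 51.2% (50.2% to 52.2%), although the intervals overlapped for H3K27Ac.

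**Figure D3:**
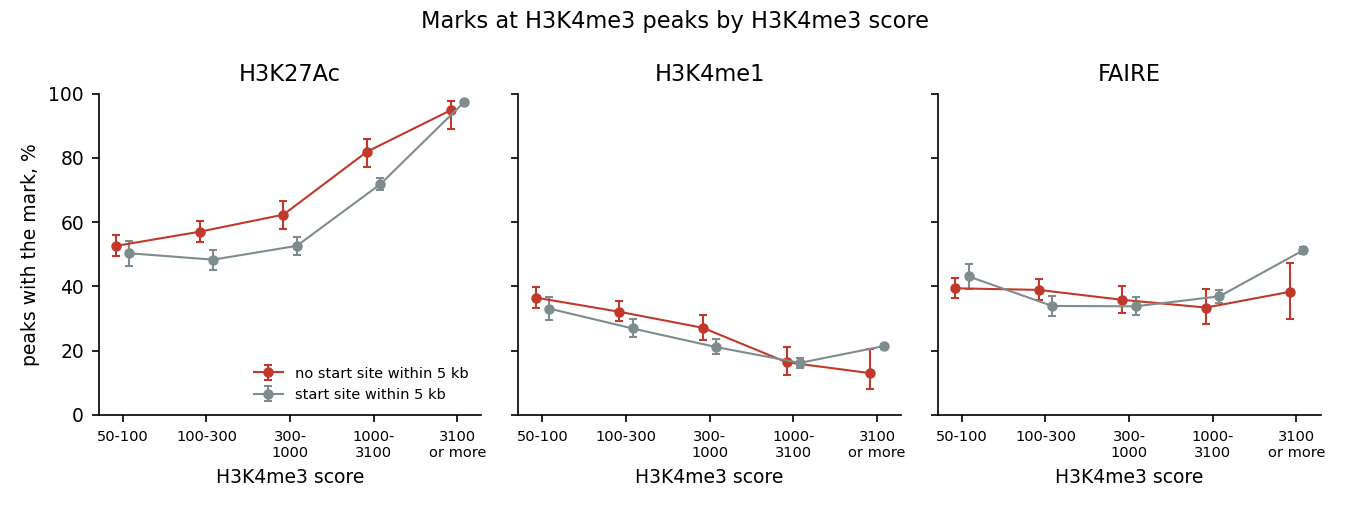
Share of H3K4me3 peaks with an H3K27Ac, H3K4me1 or FAIRE peak, in %, by class of H3K4me3 score, for distal and proximal peaks with 95% Wilson intervals. At distal peaks H3K27Ac rises from 52.6% to 94.8% and H3K4me1 falls from 36.5% to 13%.

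The 3 marks tended to occur together. Among distal H3K4me3 peaks with H3K27Ac, 55.1% had FAIRE and 46.5% had H3K4me1, whereas the values were 11.1% and 4.72% at distal peaks without H3K27Ac. For proximal peaks they were 52.5% and 24.6% with H3K27Ac, and 11.1% and 4.04% without it. Almost all members with H3K4me1 were also acetylated, at 750 of 799 (93.9%, 92% to 95.3%), as were 97.2% of proximal peaks with H3K4me1. Among acetylated members, FAIRE was present at 74% of those with H3K4me1 (70.7% to 77%) and at 38.8% of those without it (35.6% to 42.1%). Proximal acetylated peaks showed a smaller contrast, with 67.9% and 47.5%.

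The most frequent combination was the absence of all 3 marks, at 891 members (33.6%, 31.8% to 35.4%), compared with 12.9% of proximal peaks. This contrast was not found among peaks of like score below 3100. The shares were 40.2% of distal and 40.9% of proximal peaks under 100, and 37.2% and 45.6% from 100 to 300. They were 33.2% and 41.5% from 300 to 1000, and 14.6% and 24.4% from 1000 to 3100. At 3100 or more they were 4.35% and 2.14%. All 3 marks were present at 555 members (20.9%, 19.4% to 22.5%), H3K27Ac alone at 529 (19.9%), and H3K27Ac with FAIRE at 335 (12.6%), compared with 14.1%, 33.6% and 30.4% of proximal peaks. H3K27Ac with H3K4me1 was found at 195 members, FAIRE alone at 99, H3K4me1 alone at 33, and H3K4me1 with FAIRE at 16. These combinations differed in H3K4me3 strength. Members with H3K27Ac alone had a median H3K4me3 score of 435, and 36.5% of them scored 1000 or more. Members with all 3 marks had a median score of 119, and 7.21% of them scored 1000 or more. Members with none of the marks were also weak, with a median score of 128 and a median width of 1228 bp. Most of the strongest members thus had H3K27Ac and no H3K4me1, although some had all 3 marks or none.

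The height of the other marks followed a different order from H3K4me3. The H3K27Ac peak had a median score of 1781 at members with all 3 marks, 521 with H3K27Ac and FAIRE, and 219 with H3K27Ac alone. Thus the members with the weakest H3K4me3 among these lay in the strongest H3K27Ac peaks. The H3K4me1 peak had a median score of 165 at members with all 3 marks and 77.3 at members with H3K4me1 alone. The tallest FAIRE peak had a median height of 79.3 at members with all 3 marks, 62 with H3K27Ac and FAIRE, and 52.3 with FAIRE alone. FAIRE height is in the unit of the authors' peak caller. Over all members with the mark, H3K27Ac was lower than at proximal peaks (median score 632 and 1198), H3K4me1 was higher (141 and 98.7), and FAIRE was similar (69.5 and 67.6).

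Where another histone mark was present, distal H3K4me3 peaks mostly lay inside its peaks. Of the members with H3K4me1, 87.1% were wholly covered by H3K4me1 peaks, compared with 36.3% of proximal peaks with this mark. The centre of the H3K4me3 peak lay in an H3K4me1 peak at 28.8% of all members and at 11.7% of proximal peaks. At proximal peaks H3K4me1 was more frequent 1 kb from the centre (14.7% and 14.6% on the 2 sides) than at the centre, whereas at distal peaks it was highest near the centre and was 26.6% and 26.5% at 1 kb. In these pooled profiles, distal peaks therefore showed no central dip of H3K4me1 such as that at proximal peaks. The profiles were not split by H3K4me3 score or width, so the part of these in the dip was not tested. H3K27Ac covered the whole of 76% of the acetylated members, compared with 39.3% of acetylated proximal peaks. Proximal peaks were wider, as given above, and the part of width in these covered shares was not tested. FAIRE was narrower, and it covered the centre of 29.2% of distal and 23.2% of proximal peaks.

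**Figure D4:**
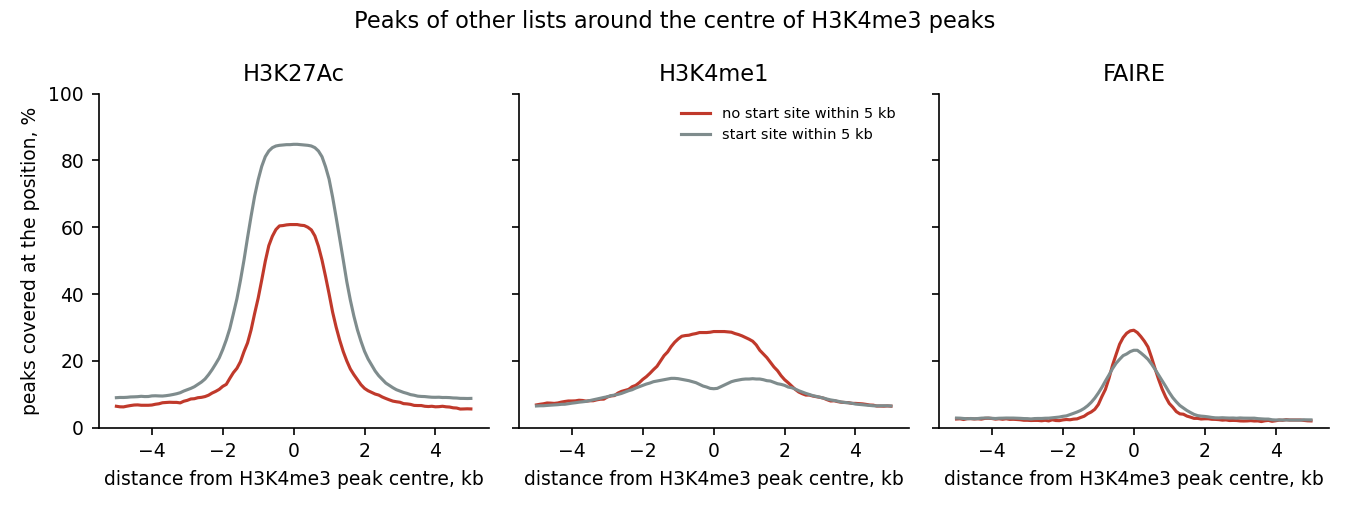
Share of distal and proximal H3K4me3 peaks covered by an H3K27Ac, H3K4me1 or FAIRE peak, in %, at positions up to 5 kb on each side of the H3K4me3 peak centre, in steps of 100 bp. H3K4me1 dips to 11.7% at the centre of proximal peaks and is 28.8% at the centre of distal peaks.

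The class most like the acetylated members is that of H3K27Ac peaks equally far from start sites but without H3K4me3. Of the distal H3K27Ac peaks, 1520 (9.54%) met an H3K4me3 peak and 14416 did not. Both had similar widths, with medians of 2337 bp and 2386 bp, while the median H3K27Ac score was 545 with H3K4me3 and 324 without it. FAIRE was present at 56.7% of those with H3K4me3 (54.2% to 59.2%) and at 76.1% of those without it (75.4% to 76.8%), a difference of -19.4 points (-22 to -16.8). H3K4me1 was present at 44.7% (42.3% to 47.2%) and 74.3% (73.5% to 75%), a difference of -29.5 points (-32.1 to -26.9). The Mantel-Haenszel odds ratios over 10 classes of H3K27Ac width were 0.348 for FAIRE (0.308 to 0.394) and 0.237 for H3K4me1 (0.211 to 0.267). Distal acetylated peaks with H3K4me3 were thus less often open and less often marked with H3K4me1 than those without it. Where FAIRE was present, its height was similar, with medians of 73.5 and 72.4.

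The sequence of distal H3K4me3 peaks lay between that of proximal peaks and that of distal acetylated peaks. Over the whole peak, the median CpG observed over expected ratio was 0.364 at distal H3K4me3 peaks (quartiles 0.259 and 0.504), 0.616 at proximal peaks and 0.194 at distal H3K27Ac peaks without H3K4me3. The median GC content was 45.9%, 53.8% and 40.9%, respectively. A CpG-rich centre, with a ratio of at least 0.6 and a GC content of at least 50% over 500 bases, was found at 583 members (22%, 20.4% to 23.6%). The share was 72% at proximal peaks and 0.236% at distal H3K27Ac peaks without H3K4me3, a difference of 21.7 points from the latter (20.2 to 23.4). These limits for a CpG-rich centre were set after the ratios had been seen.

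CpG content rose with the strength of distal H3K4me3. A CpG-rich centre was present at 7.66% of members with a score under 100 (6.09% to 9.59%), 12.6% from 100 to 300, 29.3% from 300 to 1000, and 64.9% at 1000 or more (60.1% to 69.4%). For proximal peaks the share was 19.6% under 100 and 79.5% at 1000 or more. CpG-rich members had a median H3K4me3 score of 811 and a median width of 1733 bp, compared with 126 and 1284 bp for the other members. They were more seldom marked with H3K4me1 (11% and 35.5%) and more seldom open (23.3% and 42%), while H3K27Ac was present at 56.6% of them and at 62% of the others. The CpG-rich members thus tended to be stronger and poorer in H3K4me1, although their lower quartile of score was 222, and 39.3% of them had none of the 3 marks.

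The 6 motifs were searched on both strands in 500 bases around the peak centre, and a match is a description of the letters only. TGANTCA (AP-1) was found at 23.9% of distal H3K4me3 peaks (22.3% to 25.5%), 9.98% of all H3K4me3 peaks and 50.9% of distal H3K27Ac peaks without H3K4me3. GGGCGG (Sp/KLF) was found at 32.8% of distal H3K4me3 peaks (31% to 34.6%), 65.2% of all H3K4me3 peaks and 6.43% of distal H3K27Ac peaks without H3K4me3. Both motifs changed with the H3K4me3 score. From scores under 100 to scores of 1000 or more, TGANTCA fell from 30.3% to 8.71% of distal and from 22.7% to 5.31% of proximal peaks. GGGCGG rose from 19.7% to 70.9% of distal and from 35.1% to 75.7% of proximal peaks. Between the same score classes, the median GC content of these 500 bases rose from 45.8% to 65% at distal peaks. At proximal peaks it rose from 50.8% to 66.2%. No background of like base composition was used, so the part of composition in the motif shares was not tested. The shares of these letters differed between the combinations of marks. TGANTCA was present at 45% of members with all 3 marks (41% to 49.2%), 15.9% with H3K27Ac alone (13% to 19.2%) and 12.8% with none (10.8% to 15.1%). GGGCGG was present at 19.1%, 41% and 32.3% of the same groups. Members with H3K27Ac and FAIRE had TGANTCA at 31% and the highest GGGCGG share of the combinations, 46.9%. Members with all 3 marks thus resembled distal acetylated peaks in their AP-1 letters, and those with H3K27Ac alone were nearer to H3K4me3 peaks as a whole.

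GGAATG (TEAD) was found at 33% of members with all 3 marks (29.2% to 37%), 18.3% with none and 19.1% of all H3K4me3 peaks. Distal H3K27Ac peaks without H3K4me3 had a similar share of 34.5%. CCGGAAG (ETS) rose with the H3K4me3 score, from 2.59% of members under 100 (1.73% to 3.86%) to 13.2% at 1000 or more (10.2% to 16.8%), beside 12.6% of all H3K4me3 peaks. TGTTTAC (forkhead) was most frequent at members with none of the marks among the combinations with over 100 members, at 14.6% (12.4% to 17.1%), compared with 4.61% of all H3K4me3 peaks. Its share was 10.3% of all members and 9.97% of distal H3K27Ac peaks without H3K4me3. CACGTG (E-box) differed little between distal and proximal peaks, with 8.59% and 9.19%. Its share was 5.36% of distal H3K27Ac peaks without H3K4me3. Among members it was 5.86% at scores under 100 (4.49% to 7.6%) and 11.2% at 1000 or more (8.47% to 14.7%). At open sites, in 200 bases around the centre of the tallest FAIRE peak, TGANTCA was found at 33.2% of members with all 3 marks, 23% with H3K27Ac and FAIRE, and 7.07% with FAIRE alone (3.47% to 13.9%). The last group had the lowest FAIRE heights given above, and its share was below the 13.1% of all H3K4me3 peaks with FAIRE, although its interval included that value.

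**Figure D5:**
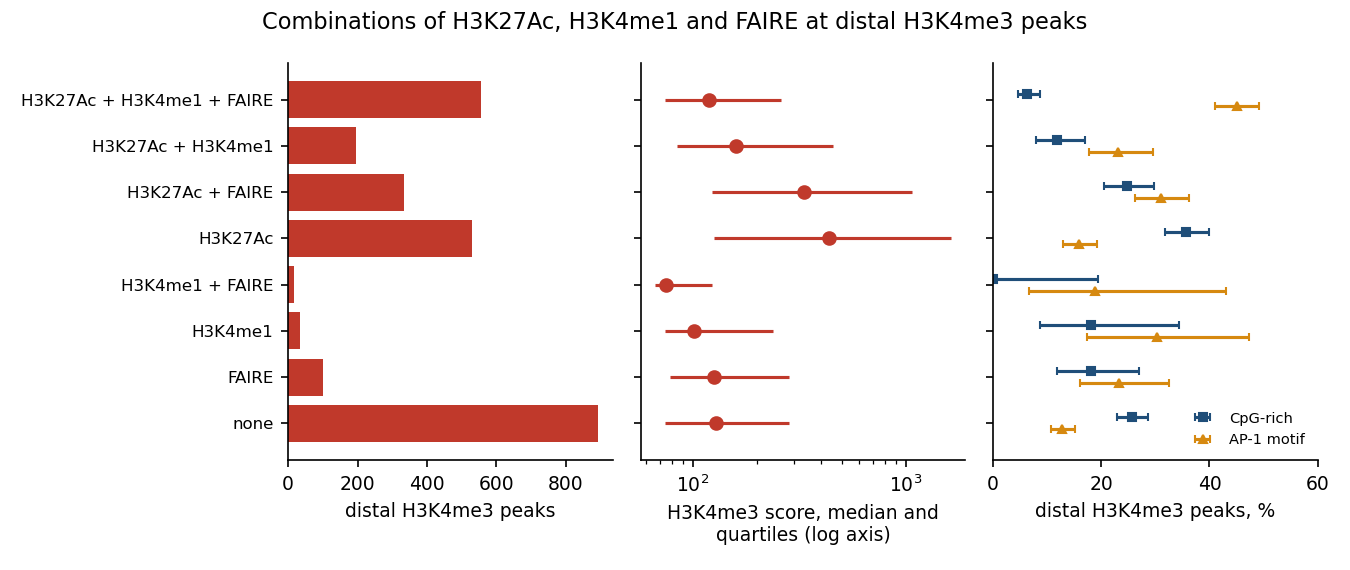
Number of distal H3K4me3 peaks in each combination of marks (left), their H3K4me3 score as median and quartiles on a log axis (middle), and the share in % with a CpG-rich centre or an AP-1 motif, with 95% Wilson intervals (right). Members with all 3 marks have a median score of 119 and an AP-1 share of 45%, and members with H3K27Ac alone have a median score of 435 and a CpG-rich share of 35.7%.

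Most distal H3K4me3 peaks lay outside genes. The centre was intergenic at 1411 members (53.2%), intronic at 1162 (43.8%) and in an exon at 80 (3.02%). Distal H3K27Ac peaks without H3K4me3 were intergenic at 36.8% and intronic at 60.8%. Members with all 3 marks were intergenic at 41.8%, nearer to the latter, as were those with H3K27Ac and H3K4me1 without FAIRE (42.1%). Members with H3K27Ac alone or with none of the marks were both intergenic at 57.1%. Introns held 56% of the members with all 3 marks and 55.4% of those with H3K27Ac and H3K4me1, so the presence of both histone marks went with a place in introns whether or not FAIRE was present.

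The median distance of a member to a start site was 17684 bp, and the largest was 358767 bp. Marks were rarest at the farthest members. H3K27Ac was present at 67.1% of the 700 members from 5 to 10 kb, at the same share from 10 to 20 kb, and at 37.1% of the 175 beyond 100 kb. H3K4me1 was level up to 50 kb, with 31%, 32% and 32.2%, and was 26.8% from 50 to 100 kb and 15.4% beyond. From the nearest to the farthest class, FAIRE fell from 42.4% to 17.7% and the median H3K4me3 score from 210 to 117. Members with none of the marks rose from 27.1% to 57.7%. Those unmarked members meet no peak of the other lists by definition, so only the size of the distance is described. Their median distance was 70646 bp to an H3K27Ac peak, 121303 bp to an H3K4me1 peak and 65460 bp to a FAIRE peak, and 4.71% of them had an H3K27Ac peak within 5 kb. For the other combinations, median distances to a mark they lacked were shorter. The longest were 38043 bp to H3K27Ac, 55383 bp to H3K4me1 and 24351 bp to FAIRE. The nearest proximal H3K4me3 peak was at a median of 169052 bp from unmarked members, compared with 73567 bp for all members.

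Few members had another H3K4me3 peak close by, but the same count was not made for other peaks. The rule itself keeps members more than 5 kb from start sites. Another member lay within 10 kb of 159 of them (5.99%), and a proximal H3K4me3 peak lay within 10 kb of 262 (9.88%). Their share of the H3K4me3 peaks of a chromosome ranged from 7.36% on chromosome 19 to 25.5% on chromosome 13, with 25.3% on chromosome 4. In bins of 5 Mb, the highest count was 23 on chromosome 6 from 25 to 30 Mb, the region of a histone gene cluster, where 123 H3K4me3 peaks lay in all and 14 of the members were acetylated. The next was 19 on chromosome 4 from 60 to 65 Mb, where only 23 H3K4me3 peaks lay in all and 16 of the members had none of the marks. On chromosome 3 from 80 to 85 Mb, 14 of 16 H3K4me3 peaks were distal and 11 of them were unmarked. Dense groups of members thus occurred both where H3K4me3 peaks were many and where they were few. A run of undetermined bases of at least 100 kb lay within 1 Mb of 5.84% of the unmarked members and of 4.67% of all members. For proximal peaks the share was 3.86%. Mappability was not analysed here.

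The sequence of a RefSeq start was found at some members, where the annotation used has no start site. The 40 bases around each start in the RefSeq promoter sequences (GRCh38.p14) were looked up in hg19 by exact match, for the 21 chromosomes with such sequences. This covered 2524 members, of which 104 (4.12%) held a RefSeq start and 185 (7.33%) had one within 5 kb. Of the proximal peaks, 72.2% held one. The share of members that held a RefSeq start was 9.77% at scores of 1000 or more and 1.68% at scores under 100. The lookup did not find every start. For the LIF member the nearest one found was 30607 bp away, although a GENCODE start of LIF lay at 5295 bp. For a member in an exon of CCM2L these distances were 65818 and 7415 bp. The shares may therefore be too low, although a start sequence was found for 26143 of 26246 gene symbols (99.6%). A match anywhere on the same chromosome was counted, without a check that it was the gene's own locus. Copies of a start sequence could therefore also make the shares too high. Members were chosen for having no GENCODE start within 5 kb, so their low share beside proximal peaks follows largely from that rule. No conclusion on unannotated starts at the strong members is drawn from it.

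Distal H3K4me3 peaks were found within 100 kb of a start site of 3995 of 19222 protein-coding genes (20.8%). Of the genes of invasion and surface receptors, 8 of 13 had such a member, among them CD44, MET, EGFR, CAV1, CAV2, PLAUR and ITGA3. The AP-1 genes followed with 4 of 9 (FOSB, FOSL1, JUND and ATF3). Of the luminal epithelial genes, 4 of 11 had one (ESR1, KRT8, KRT18 and EPCAM). For the basal epithelial genes the count was 2 of 7 (KRT14 and KRT17), for YAP and TEAD genes 2 of 11 (TEAD1 and LATS2), for mesenchymal and matrix genes 2 of 14 (ZEB2 and SNAI1), and for inflammatory genes 1 of 10 (LIF). The lists of invasion, AP-1, luminal and basal genes were above the share of all genes, and the YAP and TEAD, mesenchymal and inflammatory lists were below it. These are counts of 7 to 14 genes that were not tested, and neighbours such as CAV1 and CAV2 share the same peaks.

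Near the invasion genes all 9 members had both H3K27Ac and FAIRE, as did 890 of the 2653 members as a whole, and this small count was not tested. A member between CAV2 and CAV1, which encode caveolins of the plasma membrane, lay 11.1 kb from a CAV2 start and 11.7 kb from a CAV1 start (chr7:116151242-116153391). It had an H3K4me3 score of 2062, an H3K27Ac score of 3100, an H3K4me1 score of 269.3 and a FAIRE height of 81.54. An intronic member of MET, the hepatocyte growth factor receptor, was 16.8 kb from a start site (chr7:116346598-116347387). Its H3K4me3 score was 51.67, near the lower limit of the list, while the H3K27Ac score was 2263 and the FAIRE height 87.44. Another member 79 kb from MET, also within 100 kb of CAV1 and CAV2, had an H3K4me3 score of 258.1 in a weaker H3K27Ac peak (228.5).

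H3K4me3 scores of the members near AP-1 genes ranged from 125.6 to 3127. A member 6.25 kb from FOSL1, which encodes the AP-1 subunit FRA-1, had a score of 3060, a width of 4078 bp and all 3 marks (chr11:65674290-65678367). One member 9.45 kb from JUND had a score of 3100 with H3K27Ac alone, and it held a RefSeq start. Near ATF3, a member at 11.4 kb had a score of 125.6 and all 3 marks. Near the YAP and TEAD genes, members lay 16.6 kb from TEAD1, with H3K27Ac and FAIRE, and 13.5 kb and 17.8 kb from LATS2, the nearer one with none of the marks and the farther with all 3. The AP-1 and YAP lists thus held members of several combinations.

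Near the other named genes, members had several combinations of marks. ZEB2, which encodes a repressor of epithelial genes, had a member 5.99 kb from a start site in an exon, with H3K27Ac at 368.7. A member 87.5 kb from SNAI1, which encodes the related repressor SNAIL, had none of the marks. A member 39.3 kb from an ESR1 start, the oestrogen receptor gene, had an H3K4me3 score of 563.5 with weak H3K27Ac (90.92) and FAIRE. The member 26.7 kb from KRT8 had H3K27Ac and H3K4me1 without FAIRE, as did the one 71.8 kb from EPCAM, where the H3K27Ac score was 3100. An unmarked member with a score of 440.8 lay 22.7 kb from KRT17 and 60.6 kb from KRT14, and a second one at 53.1 kb from KRT17 had all 3 marks, with H3K27Ac at 1033.

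The widest distal H3K4me3 peak lay between LIF, which encodes the cytokine leukaemia inhibitory factor, and OSM. It was 6846 bp wide (chr22:30648043-30654888), 5.29 kb from a LIF start, and had all 3 marks, with H3K4me3 and H3K27Ac scores of 3100. Its H3K4me1 score of 53.43 was near the lower limit of 50, and its FAIRE height of 40.76 was below the list's median of 61.1. Another of the 3 widest outside chromosome 8, with 5408 bp, lay in CRYBG1 (chr6:106957559-106962966). It was 26 kb from the nearest GENCODE start, and it held a RefSeq start of CRYBG1. Its CpG observed over expected ratio was 0.923 over 500 bases, and it had H3K27Ac with no H3K4me1 or FAIRE.

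Outside chromosome 8, the strongest member with H3K27Ac alone was 63.4 kb from STX11 (chr6:144536208-144538814, score 3218). The next were 33.4 kb from ITPKB in an intron (score 3214) and 7.6 kb from SP8 (score 3200). All 3 had a CpG-rich centre. In the other acetylated combinations several members shared a score of 3100, and the widest of them outside chromosome 8 are named. With all 3 marks, 10 members had this score, among them the LIF peak, one in the histone gene region of chromosome 6, 25.5 kb from H4C8, and one 49.6 kb from KDR. With H3K27Ac and FAIRE, the highest score outside chromosome 8 was 3144, at 666 kb from CA10. Members of this combination with 3100 lay 22.6 kb from TOP1 and 20.4 kb from INPP5A. With H3K27Ac and H3K4me1, the highest score outside chromosome 8 was 3193 at 17.8 kb from GADD45B. Members of this combination with 3100 lay 17.1 kb from B4GALNT3 in an intron of NINJ2 and 87.1 kb from ARID1B. The members near TOP1 and GADD45B held a RefSeq start.

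Strong H3K4me3 without H3K27Ac was rarer, and the rankings in this paragraph leave out chromosome 8. The strongest members with FAIRE alone lay 60.1 kb from SLC1A3 (score 3100), 6.89 kb from SEC31B in an intron of WNT8B (2144) and 46.3 kb from ARHGEF7 (2089). With H3K4me1 alone, scores reached 1835 at 21.7 kb from TACC3, 1326 at 20.7 kb from NRGN, where the member held a RefSeq start, and 714.2 at 10.5 kb from DUSP8. With H3K4me1 and FAIRE they reached only 327.1 at 42.5 kb from NXPH1, 271 at 15 kb from NR2F1 and 208.8 at 214 kb from ALDH8A1. Of the unmarked members, 5 scored 3100. The widest 3 of these outside chromosome 8 were CpG-rich. They lay in an exon of CCM2L, in an intron of MNX1, which encodes a homeodomain factor, and on chromosome 2 (chr2:90447347-90451340). At the last of them, a run of undetermined bases was 93.8 kb away. The CpG-rich repeat printed above comes from that last member.

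At the limit of 5 kb, the members just inside it lay 5005 bp from a start of TMCC3, 5026 bp from LINC00365 and 5041 bp from HSPA6, with scores of 65.16, 2223 and 3100. Their nearest protein-coding starts were those of TMCC3, KATNAL1 (95.1 kb) and HSPA6. The peaks just outside it lay 4997, 4991 and 4974 bp from a start site, with scores of 873.9, 92.06 and 3100. Their nearest protein-coding starts were those of TMEM17, SALL2 and FOXO6.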

How the data were processed

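Per the study's methods, the authors used BWA to align reads to GRCh37 (hg19), filtered out duplicated and poorly mapped reads, called histone peaks against input with MACS and called FAIRE peaks with FindPeaks. The submitters' processing notes also name TopHat and HOMER. Histone peaks carry a deposited score (-10 × log10 of the p-value), and the deposited FAIRE value is the height of the signal as the authors gave it. The members and gene lists were chosen with earlier results of these data known. Overlaps (at least 1 base), distances and shares were computed with numpy 2.4.6, pandas 2.3.3 and statsmodels 0.14.6, and the counting was tested on simulated data with bedtools 2.31.1. The 10 width and score classes were the deciles of distal peaks. Mark differences were described by Newcombe intervals and Mantel-Haenszel odds ratios with no p-value. Regions named were the 3 strongest of each combination (equal scores by greater width), the 3 widest, those at the 5 kb limit and up to 3 per gene list, nearest to a start first, leaving out chromosome 8 except in the gene lists. Distances, thresholds, transcript types, chromosomes and the overlap rule were varied. The share of bases in repeats was not computed, because the genome used here was not masked. Some regions that these rules name are not reported here.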

Additional observations from a re-analysis of the deposited data

How the results depend on the processing

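Of 42 values under other settings, 24 stayed within the 95% interval of the reported value or, for the number of members, within 1.5 times of it, 14 moved further and 4 changed sign. Within width classes the H3K27Ac and FAIRE differences between distal and proximal peaks became 9.1 and 5.65 points. Within score classes the H3K27Ac, H3K4me1 and FAIRE differences were 5.88, 3.14 and -0.563 points. When the H3K4me3 peak centre had to lie in the other peak, the FAIRE share was 29.2%, and the H3K4me1 and FAIRE differences were 17 and 5.98 points. With H3K4me3 scores of 100 or more, 1765 members had H3K27Ac at 65% and H3K4me1 at 26.9%. With H3K27Ac or H3K4me1 scores of 100 or more, the shares were 53.5% and 19.6%, and with only FAIRE peaks no lower than the list's median 23.6%. Beyond 10 kb, H3K27Ac was at 58.6%, the median width was 1315 bp and the median score 144. The CpG ratio over 500 bases was 0.427. The cause of these changes was not tested. Leaving out members within 5 kb of a RefSeq start was chosen after seeing the data, and it left 2468 members and shares of 60.5%, 30% and 37.8%. No paired analysis was possible because the samples of an assay were combined into 1 list, so replicate numbers are lost. Peaks without replicates or read counts limit all shares to these lists.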
